A study of Mus musculus with 18 samples.

Results

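The 39 interferon response genes followed here are mouse genes known to be switched on when a cell receives an interferon, and they were taken by symbol from a list given for this work: Isg15, Usp18, Trim25, Ifit1, Ifit2, Ifit3, Oasl1, Oasl2, Oas1a, Oas2, Ifih1, Ddx58, Dhx58, Zbp1, Rsad2, Bst2, Mx1, Mx2, Xaf1, Rtp4, Ifi44, Ifi27, Ifi35, Irgm1, Irgm2, Igtp, Gbp2, Gbp3, Gbp7, Parp9, Parp14, Dtx3l, Irf1, Irf7, Irf8, Irf9, Stat2, Cxcl9 and Cxcl10. All 39 symbols matched 1 row each of the 54532 genes in the deposited count table, and all 39 were among the 17833 genes that passed the filter on low counts and were tested. Expression was measured by poly(A) RNA sequencing of whole gastrocnemius, a fast calf muscle, in 18 libraries from female C57BL/6 mice. Mice labelled flox carried flox/flox alleles of Zfp697, which codes for a zinc finger protein, and served as the wild type, while mice labelled mKO had Zfp697 deleted in skeletal muscle. Each genotype was sampled in 3 states with 3 libraries each: control mice kept in ordinary cages, mice after 10 days of hindlimb unloading, which takes the weight off the hind legs, and mice given 3 days of reloading after the unloading. The promoter driving the muscle deletion, the exons removed and the age of the mice are not given in the sources used here. Nothing in the labels says that the 3 libraries of a group came from separate animals, so every p-value below measures only the spread between these libraries.

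Interferons are secreted proteins released by cells that sense foreign or misplaced nucleic acid, and type I, type II and type III interferons act through different receptors. Type I and type III receptors activate the kinases JAK1 and TYK2 and a complex with STAT2 and IRF9 that binds the interferon-stimulated response element (ISRE) in gene promoters, while interferon gamma acts through JAK1 and JAK2 and the gamma-activated site (GAS). The induced genes include RNA sensors, enzymes that block translation or degrade RNA, GTPases, chemokines, and the transcription factors that carry the response itself. In muscle both the fibres and the immune, vessel and connective tissue cells between them can carry this response. These libraries are from bulk tissue, in which more cells of a type and more RNA per cell cannot be told apart.

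Promoter sequences from RefSeq (build GRCm38.p6) were found for 29 of the 39 genes, and the 250 bases before each start were searched on both strands for the core of the ISRE, 2 copies of GAAA with any 2 bases between them, and for the GAS pattern, TTCNNNGAA. The ISRE core was in 14 of the 29 genes, against 3.46% of all 27025 genes with an entry, and the GAS pattern was in 8 of the 29, against 8.13% of all those genes. Of the 20 genes with a promoter entry that rose with reloading in flox muscle, 9 held the ISRE core, as did 5 of the 9 that were not called in that comparison. The GAS pattern was in 4 of those 20 and in 4 of those 9. A match describes the letters only, and binding was not measured. The 160 bases before the start are printed for 4 genes that rose with reloading in flox muscle (Isg15, Ifit3, Oas1a and Bst2) and for 2 that passed the test in none of the 12 comparisons (Igtp and Gbp7), 5′ to 3′ along the gene's strand, with the ISRE core in capitals on either strand. Every printed gene holds the core, which only 14 of the 29 do, so the printed set does not stand for the 29. Overlapping matches run together, so that Isg15 holds 3 and Oas1a and Bst2 hold 2 each.
Isg15 (chr4:156200819-156200978, minus strand): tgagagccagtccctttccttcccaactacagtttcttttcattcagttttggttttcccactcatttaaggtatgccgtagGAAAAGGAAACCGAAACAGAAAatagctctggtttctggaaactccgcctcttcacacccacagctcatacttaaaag
Ifit3 (chr19:34583369-34583528, plus strand): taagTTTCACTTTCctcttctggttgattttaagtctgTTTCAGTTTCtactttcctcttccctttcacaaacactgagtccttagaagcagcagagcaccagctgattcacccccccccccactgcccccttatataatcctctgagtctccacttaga
Oas1a (chr5:120907526-120907685, minus strand): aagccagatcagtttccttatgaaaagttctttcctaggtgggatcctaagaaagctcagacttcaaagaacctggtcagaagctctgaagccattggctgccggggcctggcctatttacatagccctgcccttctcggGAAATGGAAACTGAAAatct
Bst2 (chr8:71537473-71537632, minus strand): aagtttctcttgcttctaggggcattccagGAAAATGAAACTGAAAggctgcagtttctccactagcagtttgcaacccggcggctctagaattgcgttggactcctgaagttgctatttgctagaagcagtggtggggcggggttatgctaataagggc
Igtp (chr11:58199396-58199555, plus strand): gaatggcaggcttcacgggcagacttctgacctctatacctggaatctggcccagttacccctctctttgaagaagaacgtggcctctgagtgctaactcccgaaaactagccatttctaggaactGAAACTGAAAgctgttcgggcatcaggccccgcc
Gbp7 (chr3:142530176-142530335, plus strand): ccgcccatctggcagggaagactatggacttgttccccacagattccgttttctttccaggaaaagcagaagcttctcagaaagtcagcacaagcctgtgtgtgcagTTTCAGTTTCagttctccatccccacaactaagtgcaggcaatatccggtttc

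Per kilobase of annotated exon, which allows levels of different genes to be set side by side, Ifi27 had the highest mean level over the 6 groups of these genes at 15.8 CPM (read counts scaled to library size) per kilobase, followed by Bst2 at 8.38, Irgm2 at 6.60 and Igtp at 5.44. The lowest were Mx1 at 0.164, Cxcl10 at 0.165, Oasl1 at 0.189 and Mx2 at 0.189 CPM per kilobase. The genes that stood highest were mostly those that moved least: of the 9 at the top of this order, Bst2 and Ifi35 were the only ones called in any comparison. Library totals ran from 45069595 to 51592566 counts. CPM below are scaled by the library total and an edgeR normalization factor, and a gene is said to have risen or fallen where edgeR's quasi-likelihood test gave a Benjamini-Hochberg adjusted p under 0.05 over the 17833 tested genes.

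Zfp697 itself was not called between the genotypes in the control or unloading libraries, with a log2 fold change of 0.01 in each (SE 0.26 and 0.25, adjusted p = 1.0 in both). Its level was 1.0, 0.984 and 1.6 CPM in flox control and 1.05, 1.31 and 1.25 CPM in mKO control. At reloading it was 2.79, 2.33 and 2.57 CPM in flox and 1.6, 1.95 and 1.47 CPM in mKO, 2 ranges that did not overlap, with a log2 fold change of -0.61 (SE 0.25) that did not pass the test (adjusted p = 0.172). Counts over the whole gene in whole muscle include exons that may remain and cells that keep the gene, so this count does not check the labels, and flox and mKO below are the labels' names.

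In the median over the 39 genes the flox libraries stood highest at reloading, while the mKO reloading libraries lay above unloading and overlapped the controls. Irgm2, Igtp, Gbp7 and Irf1 went the other way, with a higher mean level in flox control than in flox reloading. In flox 29 of the 39 genes rose from 10 days of unloading to 3 days of reloading and none fell, where 17% of all tested genes rose and 31.9% changed in either direction. The median log2 fold change of the 39 genes was 0.67, against 0.00418 for all tested genes. In mKO muscle 18 of the 39 rose over the same step and none fell, where 9.53% of all tested genes rose and 18.3% changed in either direction, and the median was 0.42. Steps above 1 on the log2 scale numbered 14 in flox, all of them called, and 10 in mKO, of which Mx1 was not called. In flox the 29 covered every role, from the sensors Ddx58 (RIG-I) and Ifih1 (MDA5) through the OAS and IFIT effectors to the transcription factors Irf7, Irf9 and Stat2 and the chemokines Cxcl9 and Cxcl10. The heat map of all 39 genes shows the flox reloading libraries as the warmest block.

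**Figure D1:**
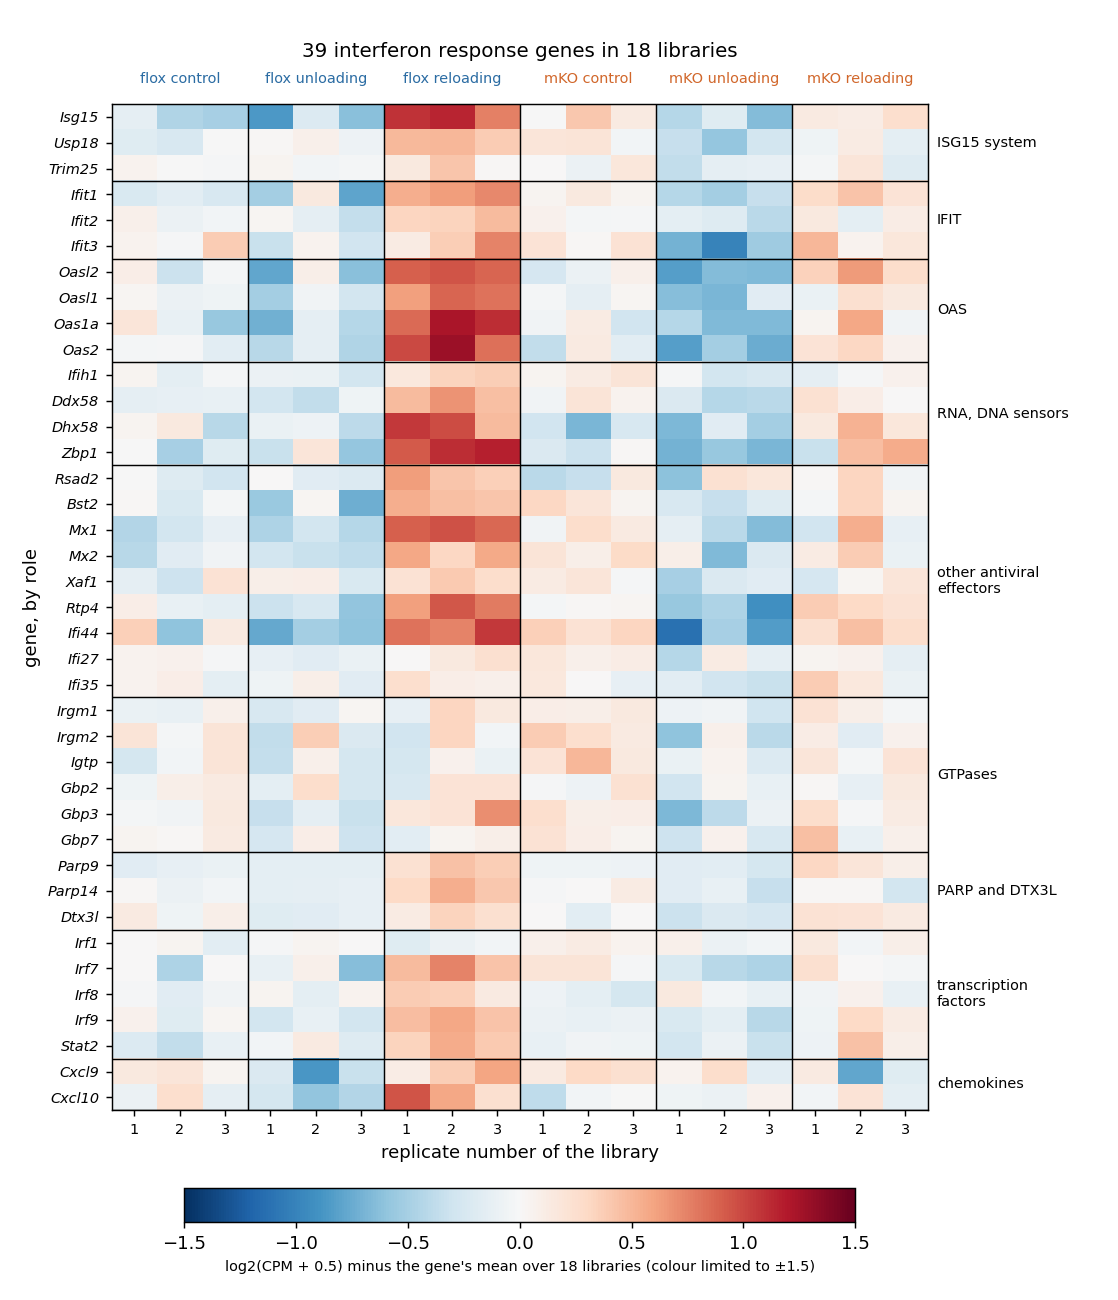
Heat map of the 39 interferon response genes (rows, grouped by role) in the 18 libraries (columns, 3 per group); colour is log2(CPM + 0.5) minus the gene's mean over the 18 libraries. The median over the 39 genes lies between 0.39 and 0.44 in the flox reloading libraries, between 0.07 and 0.16 in the mKO reloading libraries, and between -0.31 and -0.11 in the unloading libraries of both genotypes.

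Isg15 (ENSMUSG00000035692, chr4:156199424-156200818 on the minus strand) codes for a ubiquitin-like protein that is attached to other proteins, and Usp18 (chr6:121245906-121270917, plus strand) for the protease that removes it and damps signalling from the type I receptor. Isg15 measured 1.06, 0.765 and 0.72 CPM in flox control, 0.453, 0.992 and 0.613 CPM in flox unloading and 3.16, 3.30 and 2.41 CPM in flox reloading. In mKO it measured 1.22, 1.79 and 1.40 CPM in control, 0.786, 1.02 and 0.598 CPM in unloading and 1.39, 1.36 and 1.56 CPM in reloading. Every flox reloading library thus stood above every other library, while the mKO reloading libraries lay within the range of the mKO controls. The log2 fold change from unloading to reloading was 2.10 (SE 0.27, adjusted p = 1.63e-05) in flox and 0.84 (SE 0.27, adjusted p = 0.0399) in mKO. The mKO call was lost without any 1 of mKO unloading replicates 1 and 3 and the 3 mKO reloading libraries, with log2 values between 0.67 and 1.06 and an adjusted p up to 0.167 over the 6 fits that left out 1 library. At reloading, mKO was lower than flox by a log2 fold change of -1.04 (SE 0.25, adjusted p = 0.0245), a call lost without flox reloading replicate 1 or 2 or mKO reloading replicate 1 or 3, with an adjusted p up to 0.122. The change from control to reloading differed between the genotypes by -1.83 on the log2 scale (SE 0.37, adjusted p = 0.0345), and Isg15 was the 1 gene of the 39 with a called difference of that kind, where 0.522% of all tested genes had one. That call held without mKO control replicate 1, flox reloading replicate 3 or mKO reloading replicate 2 and was lost without any of the other 9 libraries, with log2 values between -2.02 and -1.66 and adjusted p up to 0.138.

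Usp18 measured 1.75, 1.66 and 2.05 CPM in flox control, 2.08, 2.19 and 1.92 CPM in flox unloading and 3.08, 3.11 and 2.82 CPM in flox reloading. The mKO libraries measured 2.40, 2.41 and 1.99 CPM in control, 1.51, 1.21 and 1.6 CPM in unloading and 1.94, 2.27 and 1.80 CPM in reloading. The mKO unloading libraries stood below all others and the flox reloading libraries above all others. Usp18 rose in flox from unloading to reloading (log2 fold change 0.54, SE 0.16, adjusted p = 0.0139), fell in mKO from control to unloading (-0.66, SE 0.16, adjusted p = 0.0217) and was lower in mKO than in flox at reloading (-0.58, SE 0.16, adjusted p = 0.0416). The rise in flox lost its call without flox unloading replicate 3 (adjusted p = 0.0527). The fall in mKO lost its call without mKO control replicate 1 or 2 or mKO unloading replicate 1 or 2 (adjusted p up to 0.0769), and the call between the genotypes was lost in 8 of 13 alternatives, among them the fit with a replicate block and those without any 1 of the 3 flox reloading libraries or mKO reloading replicate 1 or 3 (adjusted p up to 0.207). The mKO step from unloading to reloading was 0.48 (SE 0.17) with an adjusted p of 0.0516. Trim25, a ubiquitin ligase that acts on RIG-I and can also attach ISG15, was not called in any comparison, with 15.3 to 26.8 CPM over the 18 libraries.

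The IFIT proteins bind RNA that lacks the marks of the cell's own messages and hinder its translation. All 3 rose in flox from unloading to reloading. Ifit1 (chr19:34640871-34650009, plus strand) measured 2.7, 2.86 and 2.68 CPM in flox control, 2.14, 3.66 and 1.67 CPM in flox unloading and 4.98, 5.30 and 5.69 CPM in flox reloading. In mKO its values were 3.37, 3.64 and 3.36 CPM in control, 2.29, 2.14 and 2.46 CPM in unloading and 4.02, 4.55 and 3.83 CPM in reloading, so that reloading lay above both other states in each genotype. The log2 fold change from unloading to reloading was 1.09 (SE 0.20, adjusted p = 0.000364) in flox and 0.85 (SE 0.20, adjusted p = 0.00643) in mKO.

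Ifit3 (chr19:34583531-34588731, plus strand) measured 4.94, 4.68 and 6.34 CPM in flox control, 3.66, 4.94 and 3.82 CPM in flox unloading and 5.20, 6.30 and 8.31 CPM in flox reloading. Its level in mKO was 5.56, 4.81 and 5.61 CPM in control, 2.71, 2.12 and 3.14 CPM in unloading and 6.94, 4.96 and 5.39 CPM in reloading. The mKO unloading libraries stood below every other library, and the reloading libraries of mKO overlapped their controls. Ifit3 fell in mKO from control to unloading (log2 fold change -1.0, SE 0.20, adjusted p = 0.00583) and rose again with reloading (1.11, SE 0.20, adjusted p = 0.000898). These 2 steps share the mKO unloading libraries, so low values there enter both calls. In flox the same steps were -0.36, which was not called, and 0.67 (SE 0.19, adjusted p = 0.0118). The step in flox lost its call without flox unloading replicate 1 or without flox reloading replicate 3. Ifit2 rose in flox by 0.56 (SE 0.12, adjusted p = 0.00149) and was not called in mKO, where the change was 0.30. Ifit3 and its near copy Ifit3b share much of their sequence, so the split of reads between them is uncertain.

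The OAS enzymes make short 2′-5′-linked adenylate chains that activate RNase L, and the OAS-like proteins are their relatives. All 4 listed genes of the family rose from unloading to reloading in both genotypes, with log2 fold changes of 1.38 to 2.10 in flox and 1.04 to 1.51 in mKO. Oas1a (chr5:120896256-120907521, minus strand) measured 1.13, 0.831 and 0.472 CPM in flox control, 0.370, 0.806 and 0.572 CPM in flox unloading and 2.08, 2.85 and 2.60 CPM in flox reloading. Values in the mKO libraries were 0.880, 1.07 and 0.677 CPM in control, 0.568, 0.409 and 0.406 CPM in unloading and 0.982, 1.65 and 0.881 CPM in reloading. All 3 flox reloading libraries lay above every mKO library, but the difference between the genotypes at reloading, -1.10 (SE 0.31), had an adjusted p of 0.0501. The step from unloading to reloading was 2.10 (SE 0.33, adjusted p = 0.000119) in flox and 1.34 (SE 0.35, adjusted p = 0.0123) in mKO, the latter lost without mKO unloading replicate 3 or mKO reloading replicate 2 (adjusted p up to 0.0778). Oas1a has close copies beside it in the genome, so its count is uncertain to the extent that reads could not be placed.

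Oas2 (chr5:120730333-120749853, minus strand) measured 3.41, 3.45 and 3.08 CPM in flox control, 2.49, 3.14 and 2.43 CPM in flox unloading and 7.40, 9.22 and 6.57 CPM in flox reloading. In mKO it measured 2.60, 3.88 and 3.09 CPM in control, 1.75, 2.30 and 1.88 CPM in unloading and 4.09, 4.45 and 3.67 CPM in reloading. The lowest flox reloading library was above the highest mKO reloading library, and within mKO the reloading and control ranges overlapped. The rise from unloading was 1.52 (SE 0.17, adjusted p = 4.2e-06) in flox and 1.04 (SE 0.18, adjusted p = 0.000607) in mKO. At reloading Oas2 was lower in mKO by -0.93 (SE 0.17, adjusted p = 0.0048), and it was the 1 gene of the 39 whose call between the genotypes held in all 13 alternative analyses. Oasl2 reached 11.7 to 12.4 CPM in flox reloading and 7.52 to 9.96 CPM in mKO reloading. Oasl1 reached 0.958 to 1.24 CPM and 0.388 to 0.625 CPM in the same groups, and its mKO step lost its call without mKO unloading replicate 1 or 2 or mKO reloading replicate 2 (adjusted p up to 0.0951).

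**Figure D2:**
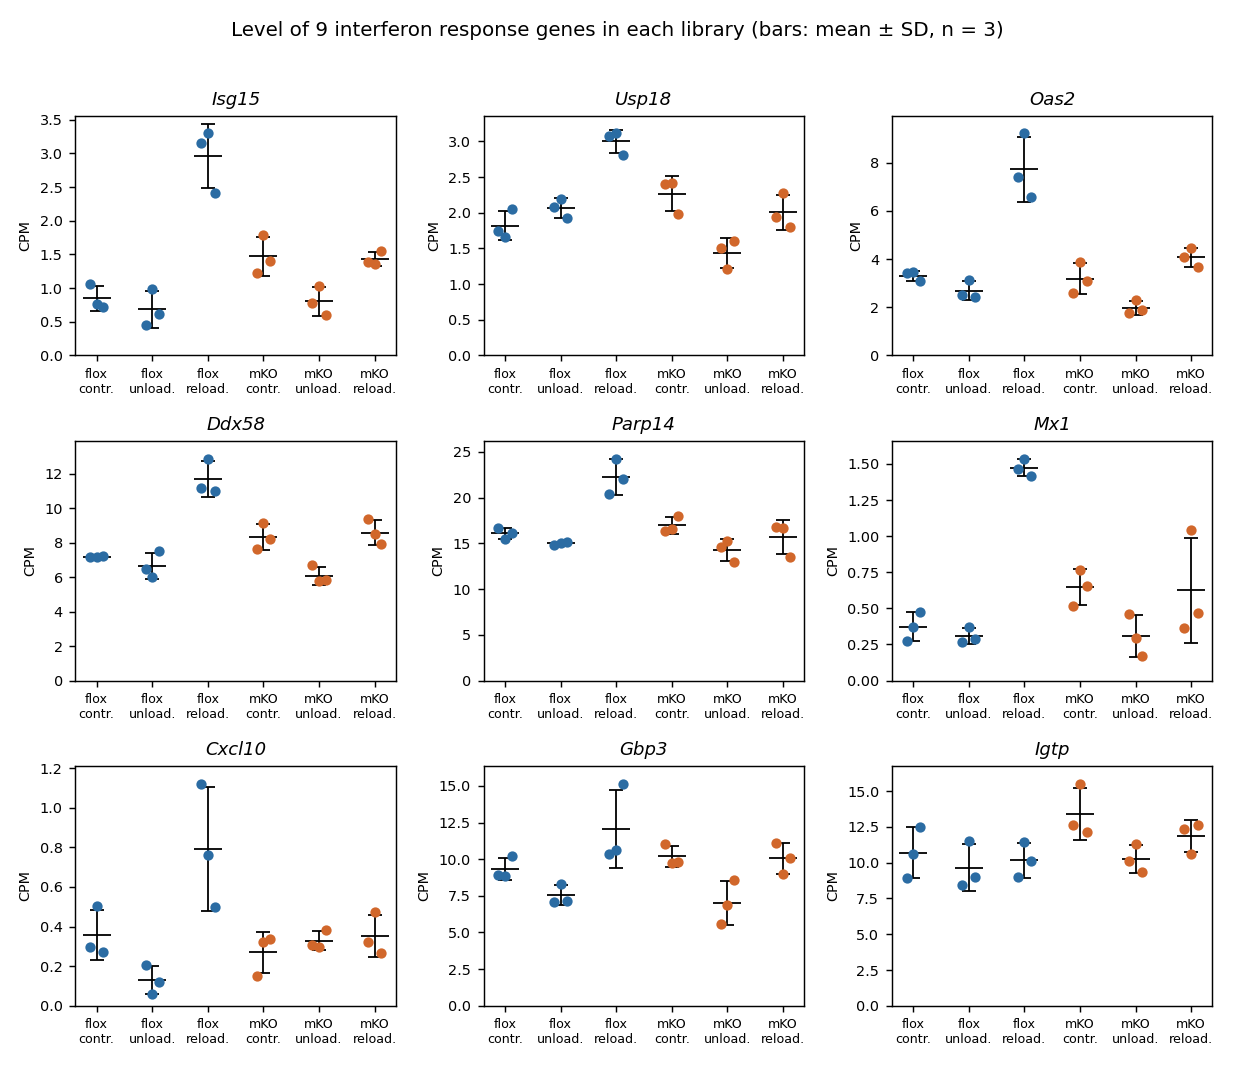
Level in CPM of 9 of the genes in each library, flox in blue and mKO in orange; points are libraries and bars the mean ± SD (n = 3). In Isg15, Usp18, Oas2, Ddx58, Parp14 and Mx1 all 3 flox reloading libraries stand above all 3 mKO reloading libraries, in Cxcl10 the 2 groups are 0.498 to 1.12 and 0.266 to 0.474 CPM, and Gbp3 and Igtp overlap.

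Among the sensors, all 4 rose with reloading in flox and 3 of 4 in mKO. Ddx58 (chr4:40203773-40239828, minus strand), which codes for the RNA sensor RIG-I, measured 7.15, 7.19 and 7.24 CPM in flox control, 6.46, 6.02 and 7.52 CPM in flox unloading and 11.2, 12.9 and 11 CPM in flox reloading. The mKO libraries measured 7.62, 9.13 and 8.21 CPM in control, 6.70, 5.76 and 5.83 CPM in unloading and 9.37, 8.50 and 7.90 CPM in reloading. The mKO reloading libraries overlapped the mKO controls, which themselves lay above all 3 flox controls. Ddx58 rose from unloading to reloading by 0.81 (SE 0.11, adjusted p = 3.33e-05) in flox and 0.49 (SE 0.11, adjusted p = 0.00556) in mKO, and fell by 0.45 on the log2 scale (SE 0.11, adjusted p = 0.0226) in mKO from control to unloading. At reloading it was lower in mKO than in flox, with a log2 fold change of -0.44 (SE 0.11, adjusted p = 0.0269). The fall was lost without mKO control replicate 2 or 3 or mKO unloading replicate 2 or 3 (adjusted p up to 0.102), and the call between the genotypes without flox reloading replicate 1 or 2 or mKO reloading replicate 3 (adjusted p up to 0.165).

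Zbp1 (chr2:173206612-173218923, minus strand) codes for a sensor of Z-form nucleic acid that can set off cell death. Its flox values were 0.852, 0.459 and 0.697 CPM in control, 0.576, 1.03 and 0.408 CPM in unloading and 2.06, 2.43 and 2.55 CPM in reloading. Its mKO values were 0.665, 0.583 and 0.867 CPM in control, 0.327, 0.409 and 0.342 CPM in unloading and 0.571, 1.36 and 1.49 CPM in reloading. The flox reloading libraries stood above all others, while 1 of the 3 mKO reloading libraries, at 0.571 CPM, stood below all mKO controls. The rise from unloading was 1.80 (SE 0.34, adjusted p = 0.000657) in flox and 1.67 (SE 0.38, adjusted p = 0.00521) in mKO, and the difference of the steps was -0.13 (SE 0.53). Dhx58 (LGP2), a partner of the other 2 RNA sensors, rose by 1.34 in flox and 1.04 in mKO, the latter lost without mKO unloading replicate 1 or 3 or mKO reloading replicate 2 (adjusted p up to 0.0884). Ifih1 rose by 0.47 in flox (adjusted p = 0.00268) and was not called in mKO, at 0.16.

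Of the 9 other antiviral effectors, 6 rose from unloading to reloading in flox and 3 in mKO. Mx1 (chr16:97447035-97462907, minus strand) belongs to the dynamin-like GTPases that block viral replication, and the allele of C57BL/6 mice is known not to give a working protein. It measured 0.277, 0.372 and 0.472 CPM in flox control, 0.267, 0.372 and 0.286 CPM in flox unloading and 1.47, 1.54 and 1.42 CPM in flox reloading. Its level in mKO was 0.515, 0.764 and 0.656 CPM in control, 0.458, 0.296 and 0.171 CPM in unloading and 0.366, 1.04 and 0.471 CPM in reloading. The flox reloading libraries were tightly grouped above all others, and in mKO only replicate 2 exceeded the mKO controls. Mx1 rose in flox by 2.25 (SE 0.38, adjusted p = 0.000219). The mKO step was 1.03 (SE 0.40, adjusted p = 0.0804) and the difference at reloading -1.22 (SE 0.35, adjusted p = 0.054), neither of which was called.

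Rtp4, a chaperone for membrane receptors, and Ifi44 rose in both genotypes, by 1.31 and 1.93 in flox and by 1.09 and 1.56 in mKO. The enzyme viperin (Rsad2), tetherin (Bst2, which holds virus particles at the cell surface) and Mx2 rose in flox by 0.64, 0.91 and 1.41, and none of these was called in mKO. The call of Rsad2 was lost without flox unloading replicate 2, flox unloading replicate 3 or flox reloading replicate 1. Ifi35 had the opposite pattern by the test, with 0.45 (SE 0.13, adjusted p = 0.0245) in mKO and 0.20 (SE 0.13, adjusted p = 0.259) in flox, and the difference of 0.24 (SE 0.19) was not called. The mKO call of Ifi35 was lost without mKO unloading replicate 2 or 3 or mKO reloading replicate 1 or 2 (adjusted p up to 0.135). Ifi27 and Xaf1, which codes for a partner of a cell death inhibitor, were called in no comparison.

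Most of the GTPase genes were not called. They are known above all as targets of interferon gamma, and their proteins coat the compartments in which parasites and bacteria live. Of 6, Gbp3 rose from unloading to reloading in both genotypes, and the other 5 (Irgm1, Irgm2, Igtp, Gbp2 and Gbp7) were called in none of the 12 comparisons, with a family median of 0.12 in flox and 0.27 in mKO. Gbp3 (chr3:142560026-142573209, plus strand) measured 8.94, 8.83 and 10.2 CPM in flox control, 7.10, 8.31 and 7.17 CPM in flox unloading and 10.4, 10.6 and 15.1 CPM in flox reloading. Values in the mKO libraries were 11, 9.75 and 9.84 CPM in control, 5.57, 6.85 and 8.61 CPM in unloading and 11.1, 9.02 and 10.1 CPM in reloading. Unloading was the low state in both genotypes. Gbp3 rose by 0.68 (SE 0.16, adjusted p = 0.00275) in flox and 0.52 (SE 0.16, adjusted p = 0.0275) in mKO, and fell in mKO from control to unloading by 0.54 on the log2 scale (SE 0.16, adjusted p = 0.0429). The mKO rise was lost without mKO unloading replicate 1 or 2 or mKO reloading replicate 1 or 3 (adjusted p up to 0.144), and the mKO fall without any 1 of the 3 mKO control libraries or mKO unloading replicate 1 or 2 (adjusted p up to 0.199).

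Igtp (chr11:58199556-58207591, plus strand), which codes for the immunity-related GTPase IRGM3 and is shown as a gene that was not called, chosen after its values were seen, measured 8.94, 10.6 and 12.5 CPM in flox control, 8.42, 11.5 and 8.99 CPM in flox unloading and 9.01, 11.4 and 10.1 CPM in flox reloading. In mKO it measured 12.6, 15.5 and 12.1 CPM in control, 10.1, 11.3 and 9.36 CPM in unloading and 12.4, 10.6 and 12.6 CPM in reloading. The 3 flox states overlapped, and the flox step from unloading to reloading was 0.08 (SE 0.15, adjusted p = 0.716). Igtp and Irgm2 share 162 exon bases on the same strand, so reads there cannot be assigned to either, and 16 of the 39 genes share some exon bases with another annotated gene. Igtp and Gbp7 hold the ISRE core in the promoters printed above, as every gene printed there does.

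PARP9 and PARP14 belong to the ADP-ribosyltransferase family, and DTX3L is the ubiquitin ligase that pairs with PARP9. All 3 genes rose in flox with reloading, and Parp9 and Dtx3l also in mKO. Parp14 (chr16:35832874-35871544, minus strand) measured 16.7, 15.4 and 16.1 CPM in flox control, 14.9, 15 and 15.1 CPM in flox unloading and 20.4, 24.3 and 22 CPM in flox reloading. The mKO libraries measured 16.3, 16.6 and 18 CPM in control, 14.6, 15.3 and 12.9 CPM in unloading and 16.8, 16.7 and 13.6 CPM in reloading. The flox reloading libraries stood above all others, and the mKO reloading libraries overlapped both the mKO unloading and the mKO control libraries. Parp14 rose by 0.57 (SE 0.09, adjusted p = 0.000165) in flox, and at reloading it was lower in mKO by -0.50 (SE 0.09, adjusted p = 0.00539). Without mKO reloading replicate 3, the lowest of the 3, the difference was -0.41 with an adjusted p of 0.0519.

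Parp9 (chr16:35938470-35972605, plus strand) measured 9.03, 9.31 and 9.47 CPM in flox control, 9.12, 9.16 and 9.17 CPM in flox unloading and 12, 14 and 13.3 CPM in flox reloading. Its level in mKO was 9.70, 9.73 and 9.63 CPM in control, 8.97, 9.08 and 8.38 CPM in unloading and 12.8, 11.6 and 10.9 CPM in reloading. In both genotypes every reloading library was above every other library of that genotype. The rise from unloading was 0.52 (SE 0.08, adjusted p = 0.000162) in flox and 0.41 (SE 0.09, adjusted p = 0.00268) in mKO. Parp9 and its neighbour Dtx3l, which rose by 0.40 in flox and 0.46 in mKO, overlap on opposite strands over 458 exon bases. The counting was not stated to use strand, so reads from the shared bases cannot be told apart.

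Among the transcription factors, Irf7, Irf8, Irf9 and Stat2 rose in flox and Irf9 and Stat2 in mKO. Irf7 (chr7:141262706-141266481, minus strand), which amplifies type I interferon production, measured 4.66, 3.24 and 4.66 CPM in flox control, 4.26, 4.94 and 2.80 CPM in flox unloading and 6.63, 8.13 and 6.44 CPM in flox reloading. Values in the mKO libraries were 5.38, 5.41 and 4.57 CPM in control, 3.89, 3.37 and 3.25 CPM in unloading and 5.60, 4.68 and 4.57 CPM in reloading. All flox reloading libraries stood above all others, and the mKO reloading libraries overlapped their controls. Irf7 rose in flox by 0.82 (SE 0.19, adjusted p = 0.00243), and the mKO step of 0.50 (SE 0.19, adjusted p = 0.076) was not called. Irf9 and Stat2, the parts of the ISRE-binding complex on the list, rose by 0.74 and 0.48 in flox and by 0.41 and 0.42 in mKO. Both mKO calls were lost without mKO unloading replicate 3 or mKO reloading replicate 2, and that of Stat2 also without mKO unloading replicate 1 (adjusted p up to 0.0905 for Irf9 and 0.193 for Stat2). Irf8, a factor of the myeloid lineage, rose in flox by 0.34 (adjusted p = 0.0435), a call that was lost in 7 of 13 alternatives, among them the fits without each of 5 single libraries. Irf1, an early target of interferon gamma, was not called and was the 1 gene of the 39 with a negative flox step, -0.12 (SE 0.09).

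The chemokines Cxcl9 and Cxcl10, which draw T cells and natural killer cells through the receptor CXCR3, rose with reloading in flox and were not called in mKO. Cxcl10 (chr5:92346638-92348889, minus strand) measured 0.298, 0.503 and 0.270 CPM in flox control, 0.206, 0.0620 and 0.123 CPM in flox unloading and 1.12, 0.759 and 0.498 CPM in flox reloading. In mKO it measured 0.150, 0.322 and 0.338 CPM in control, 0.306, 0.296 and 0.385 CPM in unloading and 0.320, 0.474 and 0.266 CPM in reloading. In flox the unloading libraries were the lowest, with only mKO control replicate 1, at 0.150 CPM, inside their range, and in mKO the 3 states overlapped. Cxcl10 rose in flox by 2.58 (SE 0.46, adjusted p = 0.000383) and in mKO the value was 0.11 (SE 0.44, adjusted p = 0.90). Its flox unloading values rest on few counts, since 1.0 CPM of Zfp697 in flox control replicate 1 rested on 47. From flox control to flox reloading neither chemokine was called, and the 2 log2 fold changes were 0.33 and 1.14. The difference of the 2 steps was -2.47 (SE 0.64) with an adjusted p of 0.162, so it was not called. Cxcl10 shares 133 exon bases with Art3 on the opposite strand.

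Cxcl9 (chr5:92321347-92328079, minus strand) measured 1.38, 1.44 and 1.26 CPM in flox control, 0.967, 0.434 and 0.858 CPM in flox unloading and 1.35, 1.70 and 2.07 CPM in flox reloading. The mKO libraries measured 1.37, 1.61 and 1.52 CPM in control, 1.27, 1.55 and 1.03 CPM in unloading and 1.37, 0.492 and 1.0 CPM in reloading. Flox unloading was below flox control in every library, and mKO reloading held the widest spread. Cxcl9 rose in flox by 1.18 (SE 0.32, adjusted p = 0.00839), the mKO value was -0.43 (SE 0.32, adjusted p = 0.387), and the difference of the steps was -1.61 (SE 0.45, adjusted p = 0.193).

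Seen by single genes, 17 of the 39 rose from unloading to reloading in both genotypes, 12 were called in flox and not in mKO (Usp18, Ifit2, Ifih1, Rsad2, Bst2, Mx1, Mx2, Parp14, Irf7, Irf8, Cxcl9 and Cxcl10), and 1, Ifi35, in mKO and not in flox. Among all tested genes 17% rose in flox and 9.53% in mKO. How many rose in both was not counted, so this split is not set against all genes. None of the 39 had a called difference between the 2 steps by edgeR, where 0% of all tested genes had one. DESeq2 also called none of the 39, where it called 144 of 17245 genes. In edgeR 8 of 39 were at an unadjusted p under 0.05. The share of all tested genes at an unadjusted p under 0.05 was not counted. Such counts, here and below, are therefore not set against all genes. The log2 change was smaller in mKO in 31 of 39 genes, against 49.7% of all tested genes. The reloading libraries did not overlap the unloading libraries for 31 genes that were higher in flox, where 23.1% of all tested genes did so, and for 22 in mKO, where 16.6% did.

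**Figure D3:**
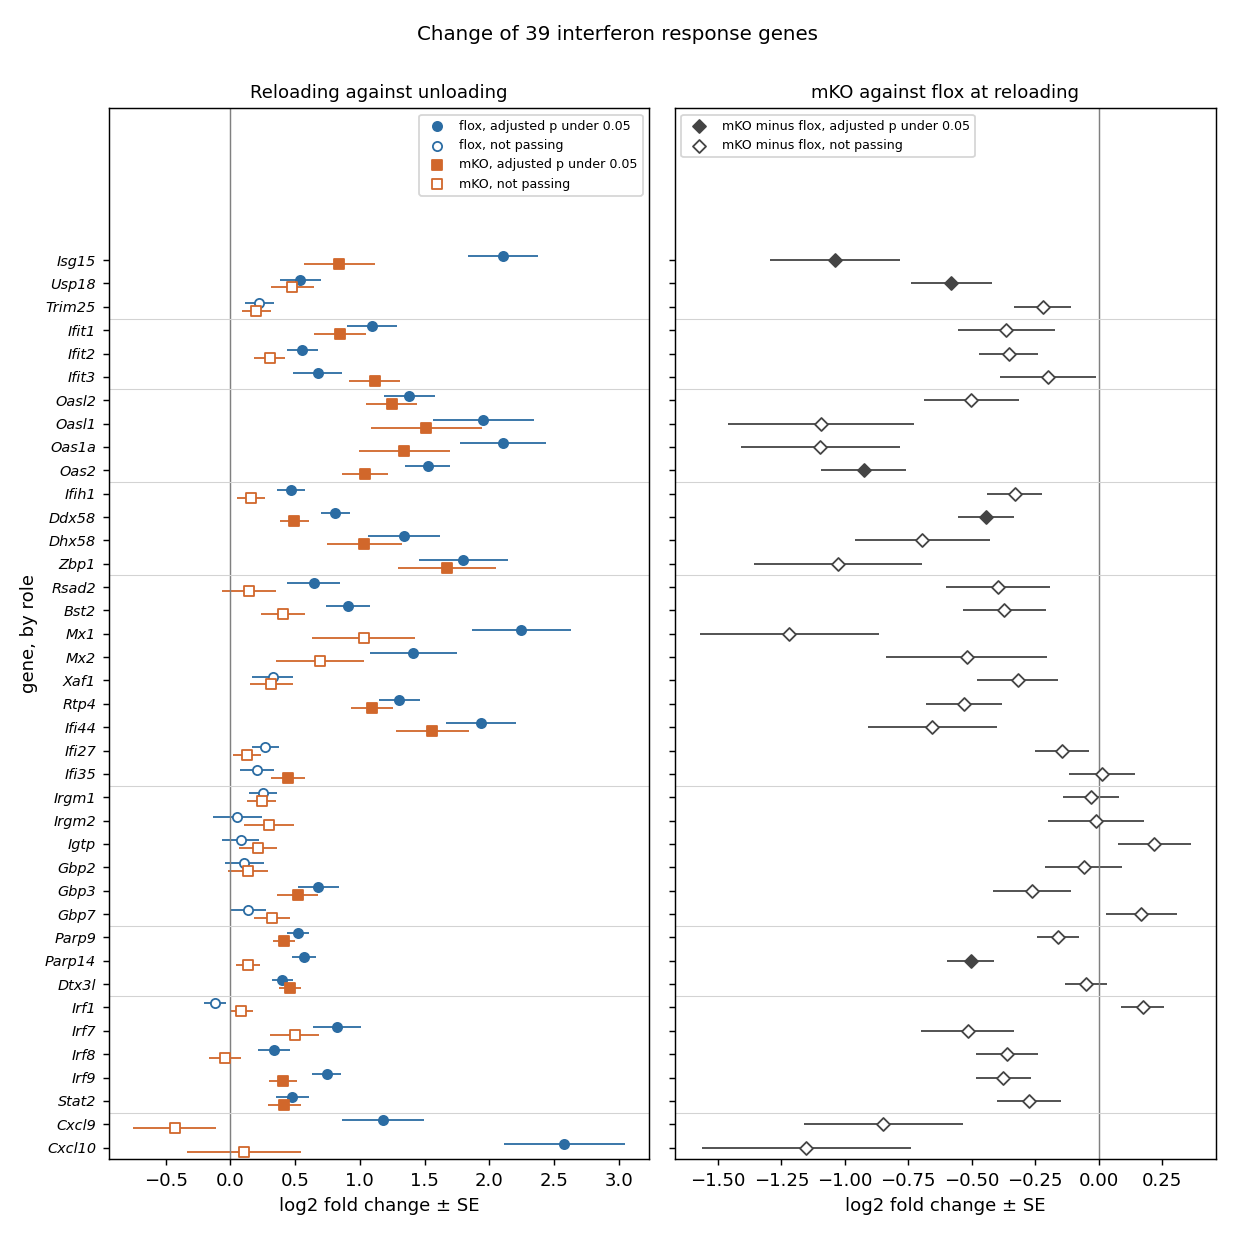
Log2 fold change ± SE of the 39 genes by role: on the left from unloading to reloading in flox (circles) and mKO (squares), on the right mKO against flox at reloading (diamonds); filled symbols passed an adjusted p under 0.05. In flox 29 symbols are filled, in mKO 18, and on the right 5, all of them below 0.

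Measured against never-unloaded muscle, 24 of the 39 genes were higher at reloading in flox, where 12.3% of all tested genes rose (22.6% in either direction), and the median log2 fold change was 0.54. Of the 24 calls, those of Ifit2, Ifih1, Rsad2, Bst2, Mx2 and Irf8 were lost in at least 1 fit that left out a single library. In mKO none of the 39 was called between control and reloading by edgeR, where 2.18% of all tested genes were, with 7 of 39 at an unadjusted p under 0.05, 1 called by DESeq2 and a median of 0.04. The OAS genes were higher in flox reloading than in flox control by 1.04 to 1.63 and in mKO by 0.32 to 0.55, with no call in mKO. The flox comparisons of reloading with control and with unloading share the reloading libraries. Within each genotype, the comparisons of unloading with control and of reloading with unloading share the unloading libraries. Low values there enter both a fall and a rise of the same gene.

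From control to unloading, 8 of the 39 genes fell in mKO and none rose, where 3.66% of all tested genes fell (7.75% in either direction): Ifi44, Ifit3, Rtp4, Oasl2, Oas2, Usp18, Gbp3 and Ddx58. The largest was Ifi44, from 2.03 to 2.30 CPM in mKO control to 0.502 to 1.05 CPM in mKO unloading (log2 fold change -1.52, SE 0.28, adjusted p = 0.00361). The mKO median was -0.39, and for 29 of the 39 genes all unloading libraries lay below all control libraries, where 14% of all tested genes did so. In flox none of the 39 was called by edgeR, where 5.74% of all tested genes were, with 5 of 39 at an unadjusted p under 0.05 and 1 called by DESeq2. The flox median was -0.16, and 7 genes did not overlap in the lower direction, where 12.8% of all tested genes did so. The difference between the genotypes in this step was called for none of the 39 by edgeR or by DESeq2, where 0% of all tested genes were called, with 4 at an unadjusted p under 0.05. The calls of Ifi44, Ifit3 and Rtp4 held without each single library. The 8 mKO calls fell to 3 without mKO control replicate 2, to 4 without mKO control replicate 3 or mKO unloading replicate 1, and to 5 without mKO control replicate 1. In those fits, in that order, the 1382 calls over all tested genes became 731, 722, 508 and 823.

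The calls between the genotypes came at reloading. There 5 of the 39 genes were lower in mKO and none higher, where 3.85% of all tested genes were lower (4.91% in either direction): Isg15, Oas2, Usp18, Parp14 and Ddx58. The median over the 39 was -0.37, and 35 of the 39 values were negative, against 49.3% of all tested genes. For 22 genes all mKO libraries lay below all flox libraries, where 12.8% of all tested genes did so. In control and in unloading muscle none of the 39 was called by edgeR or by DESeq2, where 0% of all tested genes were called in either, and 3 and 6 genes had an unadjusted p under 0.05. In control muscle 11 genes, Isg15, Mx1 and Bst2 among them, lay above flox in all 3 mKO libraries, where 4.82% of all tested genes did so, and none lay below. In unloading muscle 31 of the 39 values were negative, against 48.8% of all tested genes, with a median of -0.10. In 6 genes (Dtx3l, Ifit3, Oas2, Parp9, Trim25 and Usp18) all mKO libraries lay below all flox libraries, where 4.7% of all tested genes did so. Cxcl9 and Cxcl10 lay above in all 3 mKO libraries, where 4.58% of all tested genes did so. The 5 calls at reloading became 1 without mKO reloading replicate 3, 2 without flox reloading replicate 1 or replicate 2, 3 without mKO reloading replicate 1 and 9 without mKO reloading replicate 2. In those fits, in that order, the 875 calls over all tested genes became 127, 521, 185, 364 and 1630. With scaling by library totals alone the 5 calls became 16, and those over all tested genes 1484. That scaling moved the median of all tested genes to -0.13 on the log2 scale. It also moved the share of calls that were higher from 21.6% to 2.43%.

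The interferons themselves were at the edge of detection. Of 20 ligand genes, 14 had no count in any of the 18 libraries, and the 20 together gave 0 to 2 counts per library. Ifnb1 had 4 counts and Ifng 3 counts over all libraries, so no ligand gene was tested and a change in any of them was not detectable at this depth.

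Other genes of the pathway were taken from lists drawn up for this work. Among the receptor, kinase and signal transducer genes, Stat3, a mediator of interleukin-6 signals, rose from unloading to reloading in flox by 0.95 (SE 0.14, adjusted p = 4.93e-05) and Jak1 by 0.39, while Jak2 fell by 0.65 on the log2 scale (adjusted p = 0.00686). In mKO Stat3 and Jak1 rose, by 0.44 and 0.28. Ifngr2, a chain of the interferon gamma receptor, fell with unloading by 0.44 in flox and by 0.49 in mKO on the log2 scale.

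Of 9 tested genes that restrain the pathway, 3 rose (Socs3 1.28, Ptpn6 1.14 and Adar 0.52) and 2 fell (Cish and Pias1) in the flox step from unloading to reloading, where 31.9% of all tested genes changed. In mKO 1 of the 9 was called, where 18.3% of all tested genes were: Pias1, which fell by 0.31 on the log2 scale. Of 14 genes of nucleic acid sensing, 7 rose in flox and none fell, where 17% of all tested genes rose. The largest were the endosomal RNA receptor Tlr8 at 1.68, Irf5 at 1.67 and the adaptor Ticam1 at 1.29, and the DNA-sensing adaptor STING (Tmem173) rose by 1.21. In mKO 4 rose and 1 fell, with Irf5 at 1.57, where 9.53% of all tested genes rose. At reloading Ikbke, Unc93b1 and Tmem173 were lower in mKO, by log2 fold changes of -0.92, -0.78 and -0.78.

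A further 54 tested interferon-induced genes, none of them among the 39, gave 31 that rose and 2 that fell in the flox step, with a median of 0.72, and 11 that rose and 2 that fell in mKO, with a median of 0.26. The shares of all tested genes that rose in these steps were 17% and 9.53%. In flox the guanylate-binding gene Gbp10 fell by 2.99 on the log2 scale (SE 0.43, adjusted p = 4.76e-05), while Oas3 rose by 2.59 and Oas1g by 2.15. Gbp10 had risen with unloading in both genotypes, by 1.74 in flox and 1.51 in mKO, and it is 1 of a set of near copies, so its count is uncertain. At reloading 14 of the 54 were lower in mKO, where 3.85% of all tested genes were, and 1 was higher, led by Ifi209 at -1.64 (SE 0.32, adjusted p = 0.00759), Oas3 at -1.57 and Ifi205 at -1.09. Of 10 genes of MHC class I presentation and the immunoproteasome, 9 rose in flox, with B2m at 0.72, Tap1 at 0.66 and Psmb8 at 0.59, and 4 rose in mKO, against the same shares of all tested genes. None of the 10 was called between the genotypes at reloading.

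Among the macrophage, endothelial and fibro-adipogenic markers, some rose from unloading to reloading in both genotypes. The summed level of 16 macrophage and monocyte markers was 164 to 196 CPM in flox unloading, 347 to 523 CPM in flox reloading, 117 to 174 CPM in mKO unloading and 172 to 248 CPM in mKO reloading, with no marker at 0 in any group. Of these 16, 13 rose in flox from unloading to reloading and 5 in mKO, where 17% and 9.53% of all tested genes rose, and 13 were lower in mKO at reloading, where 3.85% were, Cd68 by a log2 fold change of -1.63. The 10 endothelial markers summed to 462 to 485 CPM in flox unloading and 566 to 636 CPM in flox reloading, and to 440 to 478 CPM and 505 to 535 CPM in mKO. In the flox step 6 of these 10 rose and 1 fell, in mKO 3 rose, and at reloading 1 was lower in mKO. The 12 markers of the muscle fibre summed to 151204 to 170815 CPM in flox unloading, 133516 to 155361 CPM in flox reloading and 156832 to 191138 CPM in mKO reloading. All 12 fibre markers were detected in every group, and 5 fell and 2 rose in the flox step. In that step 31.9% of all tested genes changed in either direction. Of 8 fibro-adipogenic markers, 5 rose and 1 fell in the flox step, 3 rose in mKO, and 3 were lower in mKO at reloading. Their summed levels overlapped, at 892 to 984 CPM in flox unloading and 870 to 1160 CPM in flox reloading. In mKO the sums were 841 to 971 CPM in unloading and 893 to 951 CPM in reloading. Of 8 dendritic cell markers, 1 rose in flox and none in mKO. Of 5 tested neutrophil markers none was called in either step, with a median of -0.85 in flox. The 8 listed neutrophil markers summed to 1.15, 0.786 and 10.6 CPM in flox unloading and 1.37, 2.74 and 3.03 CPM in flox reloading. Only flox unloading replicate 3 thus stood above the flox reloading libraries. Lymphocyte markers stayed low, with 12 T cell and natural killer cell markers summing to 1.12 to 2.64 CPM and 4 B cell markers to 0.337 to 1.57 CPM over all 18 libraries. The part of cell makeup in the rise of the 39 genes and in their difference between the genotypes was not tested.

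**Figure D4:**
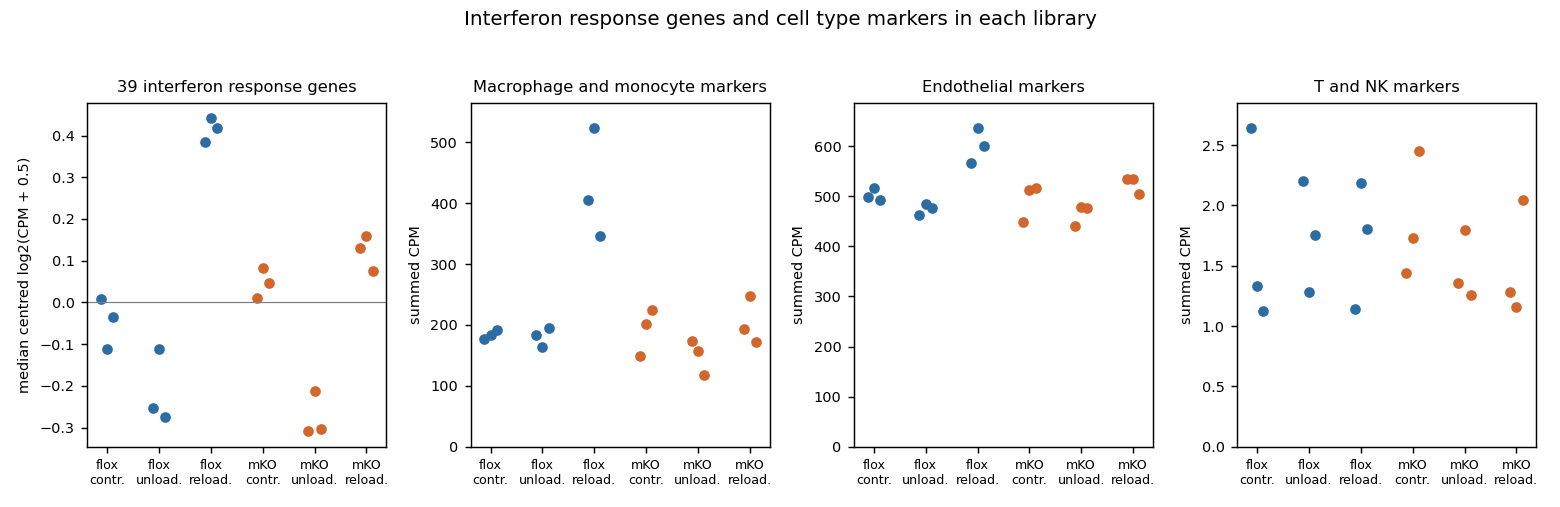
The median of the 39 genes (log2(CPM + 0.5), each gene centred on its mean over 18 libraries) and the summed CPM of macrophage and monocyte, endothelial, and T cell and natural killer cell markers in each library, flox in blue and mKO in orange. The flox reloading libraries are the highest in the first 3 panels, while the lymphocyte markers stay at or under 2.64 CPM in every library.

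The authors' deposited tables of their own tests give 4 comparisons that involve mKO. The p-values in the authors' deposited table named for mKO reloading against control followed those of the difference between the genotypes in that step, with a correlation of log10 p of 0.999 over 30875 genes with the DESeq2 fit made here, against 0.263 for the step within mKO. Its values were therefore read as differences of changes, and their log2 fold changes are smaller than the ones fitted here. There, by the authors' deposited table, Isg15 and 5 others of the 39 genes had an adjusted p under 0.05, as did 427 of 15910 genes with an adjusted p, and all 6 had negative values: Isg15 (0.00131), Parp14 (0.00667), Ddx58 (0.0120), Usp18 (0.0263), Mx1 (0.0273) and Oas2 (0.0358). The authors' deposited tables named for mKO reloading against unloading and mKO unloading against control also followed differences between the genotypes in those steps. Their correlations were 0.999 and 0.998, against 0.240 and 0.281 for the steps within mKO, so they do not give the change within mKO. The remaining table followed mKO against flox in control muscle. In these 3 of the authors' deposited tables none of the 39 had an adjusted p under 0.05. Cxcl9 and Cxcl10 were at 0.0649 in the one named for reloading against unloading.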

How the data were processed

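Poly(A) RNA from 18 gastrocnemius samples had been made into stranded libraries, per the labels' protocols. The authors aligned reads to GRCm38.p6 with STAR 2.7.3a and counted them with featureCounts, per the submitters' processing notes, which give version 2.0.3, while the file header gives 1.6.4 and an Ensembl release 94 annotation and no strand option. The deposited counts are whole reads per gene, not normalized, and the exon length per gene is deposited beside them. The authors' deposited tables also give log2 fold changes and p-values from DESeq2, per the submitters' processing notes.

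Counts were tested with edgeR 4.0.16 (R 4.3.3; TMM factors, low-count filter by group, quasi-likelihood F test, 6 group means over all 18 libraries, 12 residual degrees of freedom) for 12 comparisons, with Benjamini-Hochberg adjustment over 17833 genes. Standard errors are the log2 fold change divided by the square root of F. The script was tested on simulated data. Totals of 45069595 to 51592566 counts set the precision: the 1.0 CPM of Zfp697 in flox control replicate 1 rested on 47 counts. No 2 replicates differed by as little as sampling noise (lowest chi-square per degree of freedom 24.9 in 18 pairs). Of 45 pairs of libraries with the same replicate number, 2 had correlated deviations over 0.1, so numbers were not treated as pairing. Alternatives were other scalings (edgeR's RLE factors, totals), other filters, a replicate block, only the compared groups, each library left out, and DESeq2 1.42.0.

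All genes were accounted for. Library values are given for the member of each role group with the largest called change, for the next one in groups of 2 or 3, and for every member called between genotypes or in a difference of changes. The members and lists were chosen with earlier results of these data known. Of the listed genes, Mb21d1 and Mnda were not matched by symbol. One gene of the pathway lists, and the count of the list that holds it, is not reported here.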

Additional observations from a re-analysis of the deposited data

Results flagged for a closer look

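The change from control to reloading differed between the genotypes, by edgeR's test of the difference itself (mKO change minus flox change, adjusted over all tested genes), for 4 genes of the 39 and the lists set beside them. Among all 17833 tested genes 93, or 0.522%, had a called difference of this kind. For Isg15 the difference was -1.83 on the log2 scale (SE 0.37, adjusted p = 0.0345). It was -2.51 for Ifi209 (SE 0.48, adjusted p = 0.0342), a gene of the interferon-induced IFI200 family of DNA-binding proteins. For the macrophage markers Mrc1 (mannose receptor) and C1qb (a complement subunit) it was -1.01 (SE 0.20) and -1.38 (SE 0.27), both with an adjusted p of 0.0345. Each of the 4 calls was lost without any 1 of the same 9 of 12 libraries (all but mKO control replicate 1, flox reloading replicate 3 and mKO reloading replicate 2), with an adjusted p up to 0.138 for Isg15, 0.126 for Ifi209, 0.133 for Mrc1 and 0.126 for C1qb. Groups of 3 libraries were not searched for single outlying libraries.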

How the results depend on the processing

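None of the 85 called values of the 39 genes changed direction in an alternative. Of all 468 values, called or not, 107 changed sign in at least 1 alternative, none of them called and none above 0.44 in size on the log2 scale. Of their calls, 25 of 29 (flox) and 10 of 18 (mKO) in the step from unloading to reloading, 18 of 24 in flox reloading against control, 3 of 8 in mKO unloading against control, 1 of 5 between the genotypes at reloading and 0 of 1 in the difference of changes from control to reloading held in every alternative. The cause was not tested for any of the changes that follow. Without the low-count filter the number of genes called became 1 (main 0) in flox unloading against control, 13 (main 8) in mKO unloading against control, 2 (main 0) in mKO reloading against control, 9 (main 5) between the genotypes at reloading, and 2 (main 0) and 5 (main 1) for the differences of changes from unloading and from control to reloading. DESeq2 gave 1 in flox unloading against control, 1 in mKO reloading against control, 10 between the genotypes at reloading and 6 for the difference of changes from control to reloading. A filter of 1 CPM in 3 libraries gave 9 and 3 for the last 2 results, and scaling by totals 16 and 5. A fit of only the compared groups gave 4 in mKO unloading against control and 2 between the genotypes at reloading. Leaving out 1 library gave 0 to 2 in flox unloading against control, 3 to 7 in mKO unloading against control, 1 to 9 between the genotypes at reloading and 0 to 4 for the difference of changes from control to reloading. The steps from unloading to reloading stayed at 27 to 32 calls in flox and 12 to 19 in mKO, and flox reloading against control at 20 to 29. With a replicate block the difference of changes from control to reloading had 2 calls (main 1), the genotypes at reloading 7, mKO unloading against control 9, and the other counts did not change. Whether the numbers pair the samples cannot be told from these values. Same-number pairs had a median correlation of 0.0244 against -0.00428 for the others, and 9 of 18 libraries correlated best with their own number. With a replicate block, calls over all tested genes between the genotypes at reloading went from 875 to 986.

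Over all tested genes, calls ranged over the alternatives from 364 to 1651 (main 1024) in flox unloading against control, 508 to 2016 (main 1382) in mKO unloading against control, 85 to 1216 (main 389) in mKO reloading against control, 127 to 1630 (main 875) between the genotypes at reloading and 0 to 755 (main 93) for the difference of changes from control to reloading. Those between the genotypes in control and unloading and for the change with unloading were 0, and 148, 133 and 122 without the filter. The difference of changes from unloading to reloading went from 0 to 564 without the filter and 144 by DESeq2. The mKO step from unloading to reloading fell from 3270 to 2058 without mKO unloading replicate 1. Scaling by totals moved the median log2 value of all genes to 0.11 in the flox step from unloading to reloading and 0.15 in flox reloading against control, and the share of higher calls from 53.3% to 71.8% and from 54.3% to 80.4%.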
